A study of Mus musculus with 47 samples.

Results

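The 9 genes described here encode the leukocyte integrins that share the beta-2 chain and proteins that work with them at the leukocyte surface or in leukocyte granules: *Itgb2*, *Itgal*, *Itgam*, *Itgax*, *Fermt3*, *Selplg*, *Ptprc*, *Srgn* and *Stx11*. They were taken by name from a table of RNA-seq counts for 56748 genes, and 16213 genes, all 9 among them, had enough counts to be tested in tumors. The 9 were proposed after the tumor results were known, selected on their counts in these tumors, so their levels in m.12,436 60% tumors against the other tumors are a description. Where the fit of all genes called some of them in those comparisons, the number is printed beside the share of all genes called, with no p value of a member, and is no test of them.

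RNA was measured in subcutaneous tumors of B78-D14, a mouse amelanotic melanoma line derived from B16 that lacks *Cdkn2a*. The tumors grew in untreated, immunocompetent male C57BL/6 mice and were taken at a size endpoint. The methods and the reporting summary of the study give different ages for the mice. Edited cells carried a truncating G-to-A change in the mitochondrial gene *Mt-Nd5*, at m.12,436 in about 60% or 40% of mtDNA copies. The change was made by 1 or more transfections of a mitochondrial base editor, and control tumors came from wild-type cells of the line. There were 7 m.12,436 60% tumors, 7 m.12,436 40% tumors and 4 control tumors numbered 001 to 004. As background, 4 cultures of control cells and 4 cultures of m.11,944 60% cells, which carry a truncating change at another *Mt-Nd5* site, were read from the same table. Not analysed here were the control tumors numbered 1 to 6, the m.11,944 tumors and the cultured m.12,436 60% cells. Each edited population is a mixture of mutant and wild-type mtDNA within 1 cell line, and nothing in the labels says how many independent populations the tumors came from.

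Beta-2 integrins are pairs of an alpha and a beta chain found on leukocytes and absent from most other cells. The beta-2 chain, CD18, is encoded by *Itgb2*, and its partners decide what the pair binds: with *Itgal* (CD11a) it forms LFA-1, with *Itgam* (CD11b) Mac-1, the receptor of macrophages, neutrophils and natural killer (NK) cells for complement fragments and ICAM-1, and with *Itgax* (CD11c) the receptor typical of dendritic cells and some macrophages. Without a beta chain the alpha chains do not reach the cell surface. The pairs are held inactive until kindlin-3, encoded by *Fermt3*, and talin bind the tail of the beta chain. *Selplg* encodes PSGL-1, the selectin ligand with which leukocytes roll before integrins arrest them, and *Ptprc* encodes CD45, a phosphatase on nearly all leukocytes. *Srgn* encodes serglycin, the proteoglycan that packs granule proteins, and *Stx11* encodes syntaxin-11, a SNARE protein needed for granule release by cytotoxic lymphocytes.

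The promoters of several of these genes are known for binding PU.1, an ETS factor of myeloid cells and B cells, and for lacking a TATA box. The sequences just before the start sites are shown because the 4 integrin genes and *Stx11* are the members whose levels are followed most closely below, and because *Stx11* differs from the integrin genes in cultured cells. Each runs 5′ to 3′ on the gene's strand and ends at the base before the annotated start of the canonical transcript (GENCODE, GRCm39), so it holds no transcribed base. Capitals mark GAGGAA, a purine-rich core of PU.1 sites, on either strand, so that the reverse strand reads TTCCTC.
Itgb2, chr10:77365936-77366085, plus strand: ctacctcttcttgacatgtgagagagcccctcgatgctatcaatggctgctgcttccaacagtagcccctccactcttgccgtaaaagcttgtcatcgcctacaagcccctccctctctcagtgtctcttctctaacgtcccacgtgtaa
Itgal, chr7:126895282-126895431, plus strand: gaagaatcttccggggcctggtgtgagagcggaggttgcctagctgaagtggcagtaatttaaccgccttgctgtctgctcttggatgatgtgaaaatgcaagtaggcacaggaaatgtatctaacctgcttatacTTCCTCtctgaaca
Itgam, chr7:127661658-127661807, plus strand: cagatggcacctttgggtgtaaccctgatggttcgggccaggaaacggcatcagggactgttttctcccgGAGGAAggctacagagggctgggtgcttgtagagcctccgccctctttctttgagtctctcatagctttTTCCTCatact
Itgax, chr7:127728518-127728667, plus strand: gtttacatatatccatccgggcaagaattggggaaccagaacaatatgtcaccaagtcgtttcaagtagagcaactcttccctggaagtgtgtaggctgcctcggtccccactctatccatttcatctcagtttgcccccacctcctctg
Stx11, chr10:12840260-12840409, minus strand: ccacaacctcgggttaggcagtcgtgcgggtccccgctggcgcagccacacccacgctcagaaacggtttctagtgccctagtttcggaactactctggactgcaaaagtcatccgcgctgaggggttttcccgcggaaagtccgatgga

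*Itgam* held GAGGAA at 2 places in its 150 bases and *Itgal* at 1. Over all 9 genes the motif stood in 2 windows, and 14.2% of the 21757 windows of protein-coding genes held it. GGGCGG, the core of Sp1 sites, was found in 1 of the 9, *Itgam*, and in 32.6% of all windows. TATAAA was found in 0 of the 9 and in 7.29% of all windows. The *Stx11* window was the richest of the 9 in G and C, at 60.0%, and the *Ptprc* window the poorest, at 34.7%. These are matches of letters in a short window and say nothing about binding.

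Between 16475735 and 31218475 reads were counted on genes per tumor, and between 25249060 and 36173502 per culture. Levels are given as CPM, counts put on a common library size by the TMM method, and group values as mean ± SD over tumors. No member had fewer than 278 counts in any tumor. In bulk tumor RNA, a larger number of leukocytes and more RNA of a gene per leukocyte cannot be told apart. Control tumor 003 stood apart in melanocyte RNA: summed CPM of 6 melanocyte lineage markers was 63.7 in control tumor 003 and between 15.2 and 28.1 in the other tumors, and *Pmel*, a pigment cell gene, was the one marker of 52 tested, in 11 cell type lists of 61 genes, that differed between m.12,436 60% and control tumors (log2 fold change −2.21 ± 0.51 SE, adjusted p = 0.0456, edgeR). *Pmel* measured 2.885 ± 3.96 CPM in control tumors, where its SD exceeded its mean, and 0.633 ± 0.088 in m.12,436 60% tumors. Counts without each control tumor are given with the results. Where nothing says that tumors came from separate cell populations, p values measure only the spread between these tumors.

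All 9 genes were expressed in every tumor, but only *Stx11* was well expressed in the melanoma cells grown alone. Levels between genes were compared per kilobase of the canonical transcript. Over the 18 tumors *Itgb2* was highest, at 56.0 ± 16.9 CPM per kilobase, followed by *Srgn* at 37.9 ± 10.96 and *Selplg* at 25.3 ± 6.91. Next came *Itgam* at 18.8 ± 3.13 and *Ptprc* at 17.7 ± 5.14, which lie closer to each other than their SD, and *Fermt3* at 12.1 ± 1.96. The 3 lowest, *Itgax* at 6.15 ± 1.77, *Itgal* at 5.01 ± 1.69 and *Stx11* at 4.88 ± 1.44, also lay within their SD of each other. Of the alpha chains, *Itgam* was therefore the most abundant per length in the tumors, and *Itgax* and *Itgal* were not separated beyond their spread. The order of the other genes depends on the length used. Per kilobase of all annotated exons, the means in control tumors were 12.4 for *Itgam*, 9.20 for *Selplg*, 6.30 for *Fermt3* and 3.89 for *Ptprc*.

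In cultures the integrin and leukocyte genes were at or near 0. In unscaled CPM, which divide the count only by the library's total, *Itgb2* lay between 0.498 and 1.22 in the 8 cultures and at 93.2 or more in the 18 tumors. The mean of the control tumors was 191 times that of the control cultures (95% interval 155 to 236, from the 90 reads counted in the 4 control cultures). *Itgax* was 57.6 times higher in control tumors (47 reads in control cultures, interval 41.3 to 74.8) and *Fermt3* 203 times higher (30 reads, interval 138 to 291). *Itgal* had 3 reads in the 4 control cultures together, which gives 893 times with an interval of 311 to 4406, and *Srgn* 1 read, which gives 7370 times with an interval of 1426 to 313900. *Itgam*, *Selplg* and *Ptprc* had 0 reads in the control cultures. Against a floor of 3 reads over the group, they were 2579-fold, 1607-fold and 2984-fold higher in control tumors. The lower ends of their 95% intervals were 2111-fold, 1313-fold and 2414-fold. These intervals and floors cover counting error only.

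*Stx11* behaved otherwise. It had between 234 and 395 reads in each control culture and between 382 and 607 in each m.11,944 60% culture. Its mean in unscaled CPM was 15.7 ± 1.15 in the 4 control tumors and 10.96 ± 3.30 in the 4 control cultures, a ratio of 1.43, and the highest culture, at 21.9, lay above the lowest tumor, at 12.7. How much of its RNA in tumors came from melanoma cells and how much from leukocytes was not measured.

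**Figure D1:**
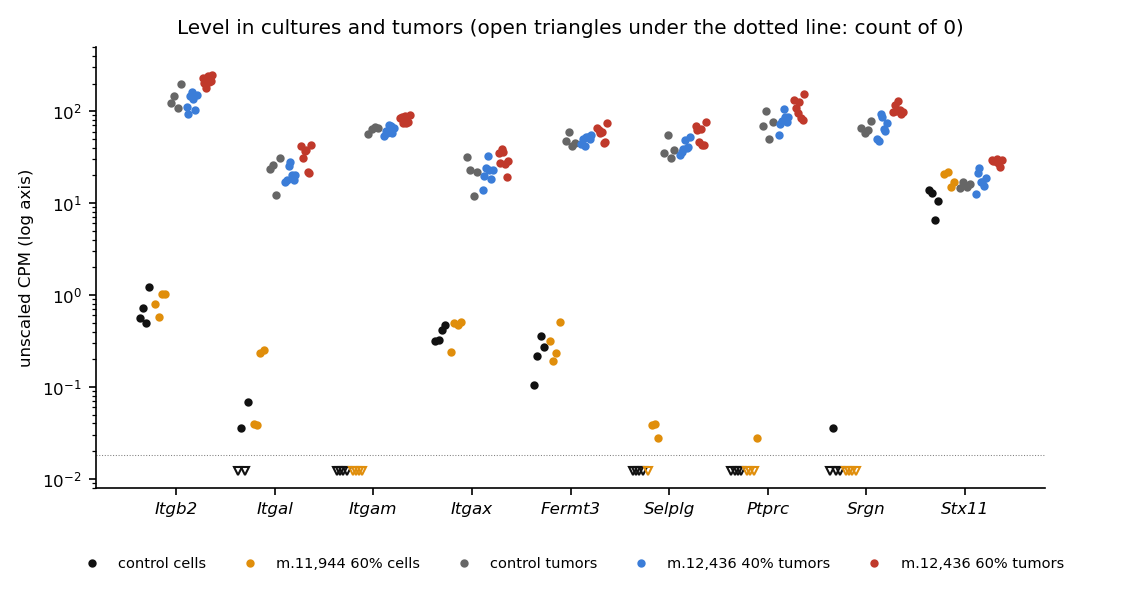
Unscaled CPM of the 9 genes on a log axis, with 1 point per culture (control and m.11,944 60% cells) or tumor (control, m.12,436 40% and m.12,436 60%), and open triangles for a count of 0. Cultures and tumors are far apart for 8 genes, while *Stx11* runs from 6.47 to 21.9 in cultures and from 12.7 upward in tumors.

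The comparison of m.12,436 60% with control tumors asks how tumors of high mutant load differ in these genes. All 9 were higher on average in m.12,436 60% tumors, by 0.29 (*Fermt3*) to 0.87 (*Stx11*) on the log2 scale with a median of 0.55, where the median over all genes tested was −0.0025. Of the 9, *Itgb2*, *Itgam*, *Srgn* and *Stx11* passed an adjusted p under 0.1 (edgeR, Benjamini-Hochberg over all genes tested), all upward, and 2.31% of all genes passed, 0.962% upward and 1.34% downward. In 3 of the 9, *Itgam*, *Srgn* and *Stx11*, every m.12,436 60% tumor was above every control tumor, which was so for 1.41% of all genes, and in 0 of the 9 was every one below, which was so for 2.66%. Because the genes were chosen with this contrast known, these calls are no test of them and nothing is read from the shares. The count of 4 changed with the control tumors: it was 1 without control tumor 001, 7 without 002, 2 without 003 and 4 without 004.

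The beta chain *Itgb2* measured 120, 142, 111 and 199.8 CPM in control tumors 001 to 004. In m.12,436 60% tumors it ran from 179 to 249.5 with a median of 216, and in m.12,436 40% tumors from 95.7 to 156 with a median of 129. Only control tumor 004 reached into the range of the m.12,436 60% tumors, and 6 of the 7 lay above it. The log2 fold change to control was 0.61 ± 0.16 (SE).

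*Itgam*, the Mac-1 alpha chain, measured 55.6, 62.4, 69.2 and 66.8 CPM in the control tumors. It ran from 73.2 to 91.3 with a median of 82.7 in m.12,436 60% tumors and from 53.9 to 69.96 with a median of 61.8 in m.12,436 40% tumors. The m.12,436 60% tumors were above all 11 others, with a log2 fold change to control of 0.38 ± 0.079. *Itgam* varied least of the 9 within groups, with an SD of 0.128 on the log2 scale, against 0.40 for *Itgal* and *Itgax*. A predicted protein-coding gene, Gm49368, overlaps *Itgam* on the same strand, so its reads may be split between them.

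The other alpha chains overlapped between groups. *Itgal*, the LFA-1 chain of T cells and other leukocytes, measured 23.0, 24.99, 12.7 and 31.6 CPM in the control tumors and 21.7 to 42.95 with a median of 36.8 in m.12,436 60% tumors (log2 fold change 0.53 ± 0.23). In m.12,436 60% tumors 005 and 006 it stood at 21.9 and 21.7, and in the other 5 at 31.1 or more. *Itgax*, the CD11c chain, measured 31.2, 21.9, 12.4 and 22.2 CPM in the control tumors and 19.9 to 38.3 with a median of 28.8 in m.12,436 60% tumors (0.47 ± 0.23). Its control tumors spread as widely as the m.12,436 60% tumors, and 3 of the 7 were above every control.

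*Fermt3*, which switches the integrins on, differed least. It measured 46.7, 56.9, 42.5 and 45.9 CPM in the control tumors and 45.2 to 74.5 with a median of 59.1 in m.12,436 60% tumors (0.29 ± 0.11). The groups overlapped, and 5 of the 7 m.12,436 60% tumors were above every control. *Fermt3* overlaps *Trpt1* and the long noncoding RNA Gm54052 on the opposite strand, and whether the counting used strand is not given in the sources used here, so reads of *Fermt3* and these genes cannot be told apart where they overlap.

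*Selplg*, the selectin ligand, measured 34.5, 52.4, 31.5 and 39.1 CPM in the control tumors and 43.5 to 77.8 with a median of 63.0 in m.12,436 60% tumors (0.55 ± 0.17). *Ptprc*, the marker of all leukocytes, measured 68.2, 95.8, 51.0 and 77.0 CPM in the control tumors and 81.4 to 154 with a median of 110.2 in m.12,436 60% tumors (0.61 ± 0.19). In both genes 4 of the 7 m.12,436 60% tumors were above every control, and tumors 005 and 006 were again among the 3 lowest of the group. *Selplg* is overlapped by the long noncoding RNA Gm71766 on the opposite strand, and *Ptprc* by A130071D04Rik, a transcript still to be checked experimentally, on its own strand, so reads of both may be shared with these genes.

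The granule genes separated the groups. *Srgn* measured 64.5, 56.3, 64.4 and 79.1 CPM in the control tumors and 96.4 to 128 with a median of 101 in m.12,436 60% tumors (0.68 ± 0.16). *Stx11* measured 14.3, 16.4, 15.4 and 16.6 CPM in the control tumors and 25.4 to 30.3 with a median of 28.9 in m.12,436 60% tumors (0.87 ± 0.13). Every m.12,436 60% tumor was above every control tumor in both. *Srgn* is overlapped by 2 long noncoding RNAs, Gm66784 on its own strand and Gm56955 on the opposite one, and its reads may be shared with them too. The SD of *Stx11* was 1.04 CPM over the control tumors and 1.62 over the m.12,436 60% tumors. Tumors 005 and 006, low in *Itgal*, *Selplg* and *Ptprc*, measured 27.8 and 25.4 CPM of *Stx11*, still above every control tumor.

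**Figure D2:**
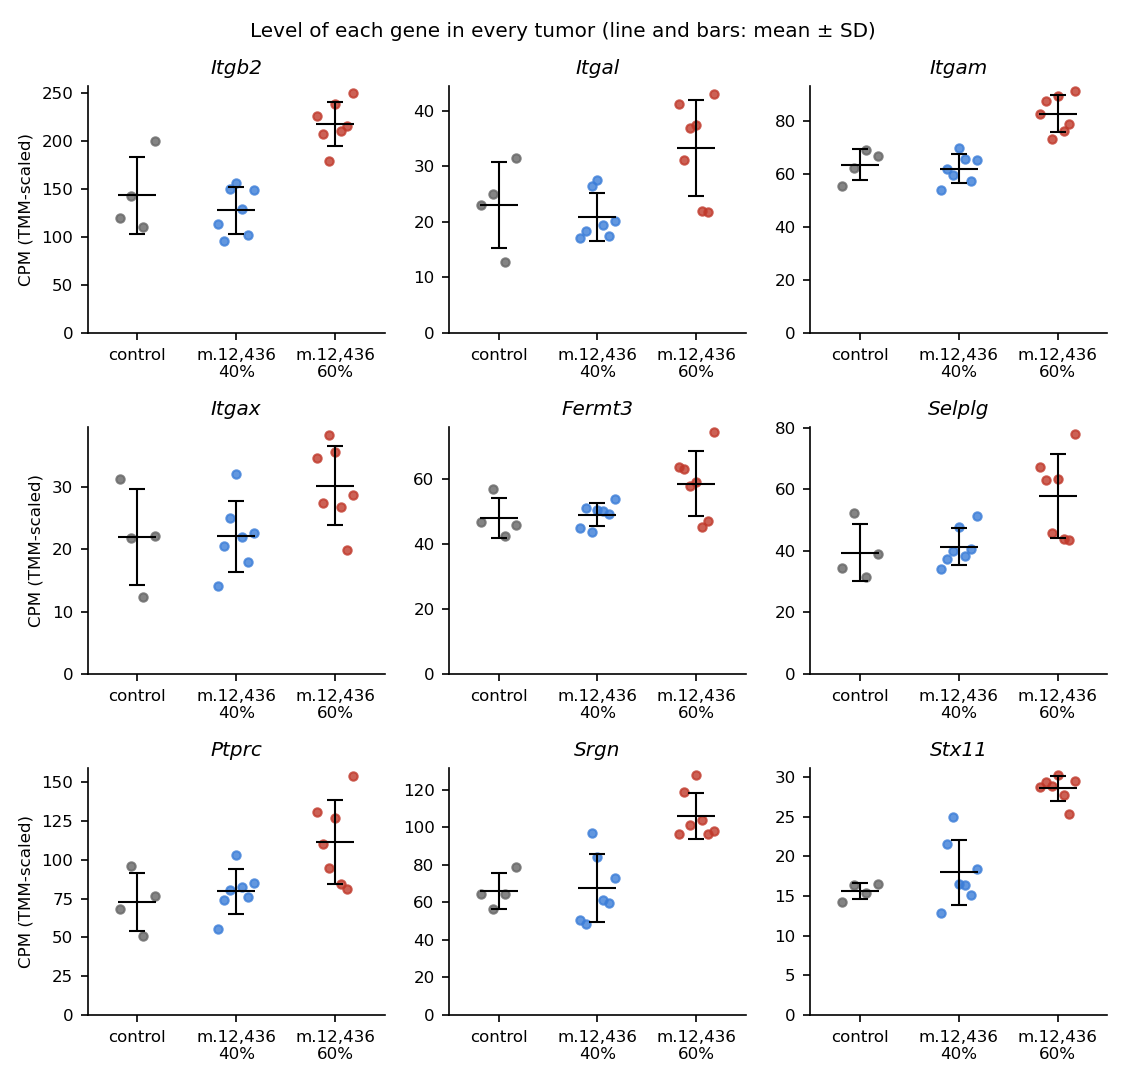
TMM-scaled CPM of each gene in every tumor, with 1 point per tumor, groups on the horizontal axis (control, n = 4, m.12,436 40%, n = 7, m.12,436 60%, n = 7) and black bars for mean ± SD. In *Itgam* and *Stx11* the m.12,436 60% tumors lie above all others, and in *Itgal*, *Itgax*, *Fermt3*, *Selplg* and *Ptprc* the groups overlap.

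The comparison of m.12,436 60% with m.12,436 40% tumors holds the edited site constant, while the mutant load differs. The study reached its mutant loads with differing numbers of transfections. The edited populations may therefore also differ in transfection history, which cannot be told apart from load here. It uses the same m.12,436 60% tumors as the comparison above, so it is not an independent repeat of it. All 9 genes were higher on average in m.12,436 60% tumors, by 0.26 (*Fermt3*) to 0.77 (*Itgb2*) with a median of 0.49. The same 4 genes, *Itgb2*, *Itgam*, *Srgn* and *Stx11*, passed an adjusted p under 0.1, all upward, where 1.81% of all genes passed, 0.814% upward. In *Itgb2*, *Itgam* and *Stx11* every m.12,436 60% tumor was above every m.12,436 40% tumor, which was so for 0.315% of all genes. These tumors too were known when the genes were chosen, so here again the calls are no test of the members.

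*Itgb2* differed by 0.77 ± 0.13 on the log2 scale, with means of 218 ± 23.0 and 128 ± 24.7 CPM. *Stx11* differed by 0.67 ± 0.11, with 28.6 ± 1.62 against 17.99 ± 4.11 CPM. The m.12,436 40% tumors 003 and 002 came nearest to the m.12,436 60% range, the second of them at 21.6. *Srgn* differed by 0.65 ± 0.14, with 106 ± 12.3 against 67.7 ± 17.9 CPM. It overlapped through m.12,436 40% tumor 003, at 96.9. *Itgam* differed by 0.42 ± 0.067, with 82.7 ± 7.00 against 61.9 ± 5.45 CPM. The other 5 genes differed by 0.68 ± 0.20 (*Itgal*), 0.49 ± 0.16 (*Ptprc*), 0.48 ± 0.14 (*Selplg*), 0.46 ± 0.19 (*Itgax*) and 0.26 ± 0.095 (*Fermt3*), and did not pass.

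Tumors of the lower mutant load were not separated from control tumors. In m.12,436 40% against control tumors the 9 genes differed by −0.16 ± 0.15 (*Itgb2*) to 0.20 ± 0.13 (*Stx11*) on the log2 scale, 6 of them above 0, with adjusted p between 0.924 and 0.998 (edgeR). Of the 9 genes, 0 were called by edgeR, limma-voom and DESeq2 alike and 0 reached an unadjusted p under 0.05. Over all genes edgeR called 0.0% (0 genes, with 825 at an unadjusted p under 0.05), limma-voom 0 and DESeq2 5. The m.12,436 40% tumors were above every control tumor in 3 of 7 cases for *Stx11*, 2 for *Srgn*, 1 each for *Itgam*, *Itgax* and *Ptprc*, and 0 for the others. The SE of these differences were 0.078 (*Itgam*) to 0.23 (*Itgal* and *Itgax*). A p that misses the threshold does not show that the groups were alike. Both groups were among the tumors known when the genes were chosen, so these p values are no independent test of the members.

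**Figure D3:**
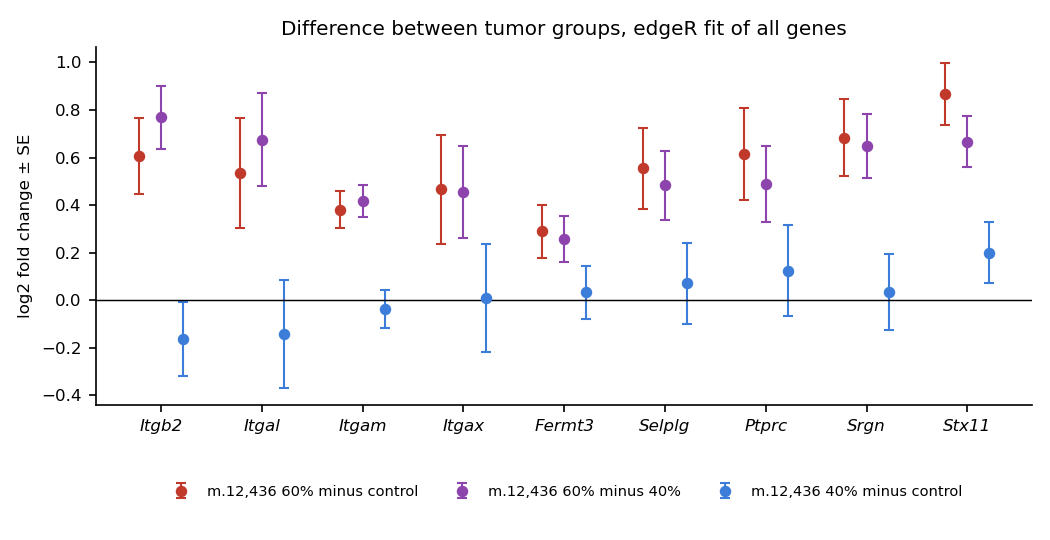
Log2 fold change ± SE of the 9 genes in the 3 comparisons of tumor groups, from 1 edgeR fit of 18 tumors. The 2 comparisons that involve m.12,436 60% tumors, which share those tumors, lie between 0.26 and 0.87, and m.12,436 40% minus control lies between −0.16 and 0.20.

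Ratios between members ask whether the genes moved by different amounts. Each is a log2 ratio of CPM within a tumor and does not depend on library size. *Itgam* exceeded *Itgal* by 1.53 ± 0.61 in control, 1.58 ± 0.23 in m.12,436 40% and 1.35 ± 0.36 in m.12,436 60% tumors, and *Itgax* lay below *Itgam* by −1.60 ± 0.67, −1.52 ± 0.27 and −1.48 ± 0.34. In both ratios the groups overlapped. *Itgb2* relative to *Ptprc*, that is, per RNA of the general leukocyte marker, was 0.97 ± 0.35 in control, 0.68 ± 0.25 in m.12,436 40% and 0.99 ± 0.27 in m.12,436 60% tumors. The m.12,436 60% tumors exceeded the m.12,436 40% tumors by 0.31 on average, and 2 of 7 were above every m.12,436 40% tumor. *Srgn* relative to *Ptprc* was −0.12 ± 0.47, −0.26 ± 0.28 and −0.046 ± 0.36. The m.12,436 60% tumors helped to choose the genes, so their ratios are given with no test. In m.12,436 40% against control tumors 0 of the 4 ratios passed an exact two-sided permutation test, with p between 0.149 (*Itgb2*/*Ptprc*) and 0.876 (*Itgam*/*Itgal*). The smallest p that 7 against 4 tumors allow is 0.00303. The m.12,436 40% and control tumors were also known when the genes were chosen, so these p values are no independent test.

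**Figure D4:**
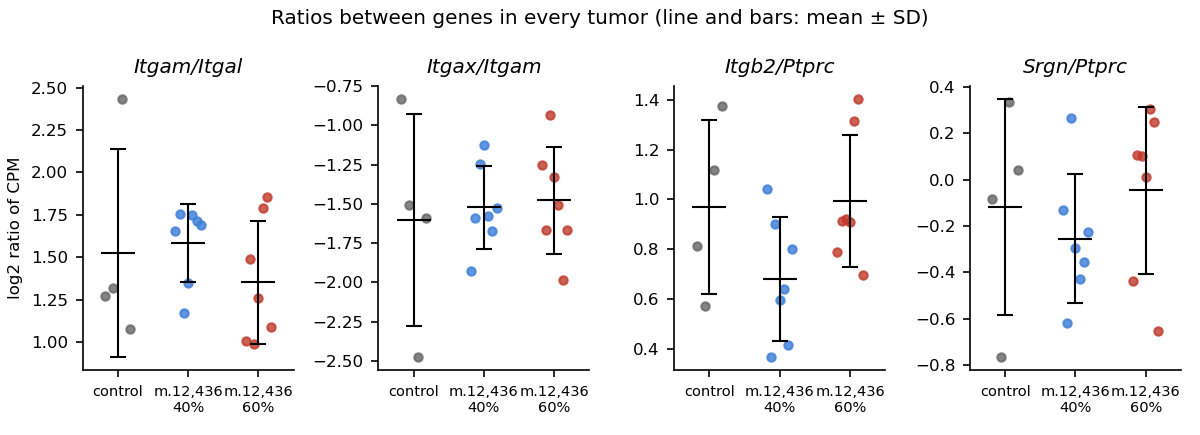
Log2 ratio of CPM for 4 pairs of genes in every tumor, by group, with black bars for mean ± SD. The groups overlap in all 4 panels, and the mean of *Itgb2*/*Ptprc* is 0.68 in m.12,436 40% tumors against 0.97 and 0.99 in the other groups.

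The rest of the adhesion machinery was read from 8 lists of 87 further genes compiled by function, with earlier results of these data known, of which 79 were tested. In m.12,436 60% against control tumors 5 rose and 1 fell, 7.59% of those tested against 2.31% of all genes, with a median of 0.16 on the log2 scale. In m.12,436 60% against m.12,436 40% tumors 6 rose and 1 fell, 8.86% against 1.81%, with a median of 0.12. In m.12,436 40% against control tumors edgeR, limma-voom and DESeq2 each called 0, and 2 had an unadjusted p under 0.05. The first count depends on the control tumors, being 3 without control tumor 001, 17 without 002, 0 without 003 and 11 without 004, and DESeq2 gave 19. It was 11 without m.12,436 60% tumor 006. The second count was 1 without m.12,436 60% tumor 001 or 004 and 2 without 002 or 007, and 1 and 2 without m.12,436 40% tumors 006 and 001. It was 11 without m.12,436 60% tumor 005 and 10 without 006 or without m.12,436 40% tumor 004, and DESeq2 gave 18. Of all 16213 genes tested, edgeR gave 2645 an unadjusted p under 0.05 in m.12,436 60% against control tumors and 2285 against m.12,436 40%. These are the background for the numbers of list genes and markers at that threshold below.

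Among the counter-receptors of beta-2 integrins, *F11r* (JAM-A, bound by LFA-1) rose and the others did not pass. It measured 37.4 ± 3.52 CPM in m.12,436 60%, 26.8 ± 6.10 in m.12,436 40% and 23.6 ± 4.08 in control tumors. It was higher than in control tumors by 0.66 ± 0.15 on the log2 scale (adjusted p = 0.0377) and than in m.12,436 40% tumors by 0.48 ± 0.12 (adjusted p = 0.0744). It was also expressed in cultures, at 1.87 to 11.4 unscaled CPM. The fourth alpha chain, *Itgad*, and *Icam4* had too few counts to be tested. The median of this list was −0.062 against control and 0.0067 against m.12,436 40%.

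Of the 14 tested genes that carry the inside-out signal to the integrin (talin, kindlins, Rap1 and its regulators), edgeR called 0 in any comparison, with 4 at an unadjusted p under 0.05 against control and 3 against m.12,436 40%. limma-voom called 0 and DESeq2 2 in each of those comparisons. *Rap1b*, a Rap1 protein, had the smallest p against control, at 283 ± 10.1 and 248 ± 11.5 CPM (0.19 ± 0.058, adjusted p = 0.125). Cultures expressed *Rap1b* at 242 to 303 unscaled CPM. *Rassf5*, the Rap1 effector that binds LFA-1, had the smallest p against m.12,436 40%, with 20.8 ± 3.20 against 16.6 ± 2.02 CPM (0.33 ± 0.10, adjusted p = 0.141). Cultures expressed *Rassf5* at 1.44 to 16.95 unscaled CPM.

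Of the 10 genes that signal from the bound integrin into the cell, 9 were above 0 against control, with a median of 0.28, and *Fgr* passed in both comparisons. This Src-family kinase of myeloid cells measured 34.7 ± 6.62 CPM in m.12,436 60%, 21.1 ± 3.12 in m.12,436 40% and 20.3 ± 4.77 in control tumors. It had 0 counts in all cultures. Its log2 fold changes were 0.77 ± 0.16 to control (adjusted p = 0.0229) and 0.72 ± 0.13 to m.12,436 40% (adjusted p = 0.0140). *Lcp2*, the adaptor SLP-76, passed against m.12,436 40% (32.6 ± 4.99 against 24.97 ± 3.14 CPM, 0.38 ± 0.10, adjusted p = 0.0827).

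The leukocyte actin regulators, which move the cell once integrins have engaged, followed the same pattern in part. All 9 were above 0 against control, with a median of 0.39. *Dock2*, an activator of Rac in blood cells, rose to 67.2 ± 12.3 CPM from 44.3 ± 9.80 in control (0.60 ± 0.13, adjusted p = 0.0381) and 49.7 ± 4.06 in m.12,436 40% tumors (0.44 ± 0.11, adjusted p = 0.0796). *Nckap1l*, the blood-cell subunit of the WAVE actin complex, rose against control (95.9 ± 14.98 against 68.4 ± 8.27 CPM, 0.49 ± 0.11, adjusted p = 0.0331).

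Of the other integrin chains 1 gene passed, upward, and of the selectin system 1 passed upward and 1 downward. *Itga1*, the alpha-1 chain that pairs with beta-1 to bind collagen, rose against m.12,436 40% (39.9 ± 2.17 against 28.1 ± 5.52 CPM, 0.51 ± 0.12, adjusted p = 0.0593) and reached 0.47 ± 0.14 against control without passing (adjusted p = 0.127). It measured 12.03 to 32.1 unscaled CPM in cultures. Of the 14 genes of selectins and their ligands, *Cd24a*, a ligand of P-selectin, rose against control (3.89 ± 0.72 against 2.39 ± 0.43 CPM, 0.70 ± 0.16, adjusted p = 0.0435) and against m.12,436 40% (0.58 ± 0.14, adjusted p = 0.0563). *St3gal6*, a sialyltransferase that completes selectin ligands, fell against control (14.0 ± 0.72 against 20.9 ± 3.02 CPM, −0.57 ± 0.11, adjusted p = 0.0176) and against m.12,436 40% (−0.40 ± 0.097, adjusted p = 0.0593). Its level in cultures, 24.9 to 49.8 unscaled CPM, was above that in all 3 tumor groups on average.

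Of the 7 tested genes of other leukocyte and endothelial adhesion, edgeR, limma-voom and DESeq2 each called 0, with 1 at an unadjusted p under 0.05 against control (*Esam*, an endothelial junction protein, −0.42 ± 0.17, adjusted p = 0.238) and 0 against m.12,436 40%. Of the 9 tested genes of granule content and fusion, which work beside *Srgn* and *Stx11*, all were above 0 against control with a median of 0.50. edgeR and limma-voom called 0 of them and DESeq2 1 in each of the comparisons with m.12,436 60% tumors, and edgeR gave 6 and 3 at an unadjusted p under 0.05. *Rab27a*, which docks secretory granules, measured 6.10 ± 1.14 against 4.28 ± 0.96 CPM in control tumors (0.51 ± 0.16, adjusted p = 0.140). Cultures expressed *Rab27a* at 0.707 to 5.31 unscaled CPM. *Unc13d*, which primes the granules that syntaxin-11 fuses, measured 10.5 ± 2.29 against 7.495 ± 1.25 CPM in m.12,436 40% tumors (0.49 ± 0.16, adjusted p = 0.168).

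**Figure D5:**
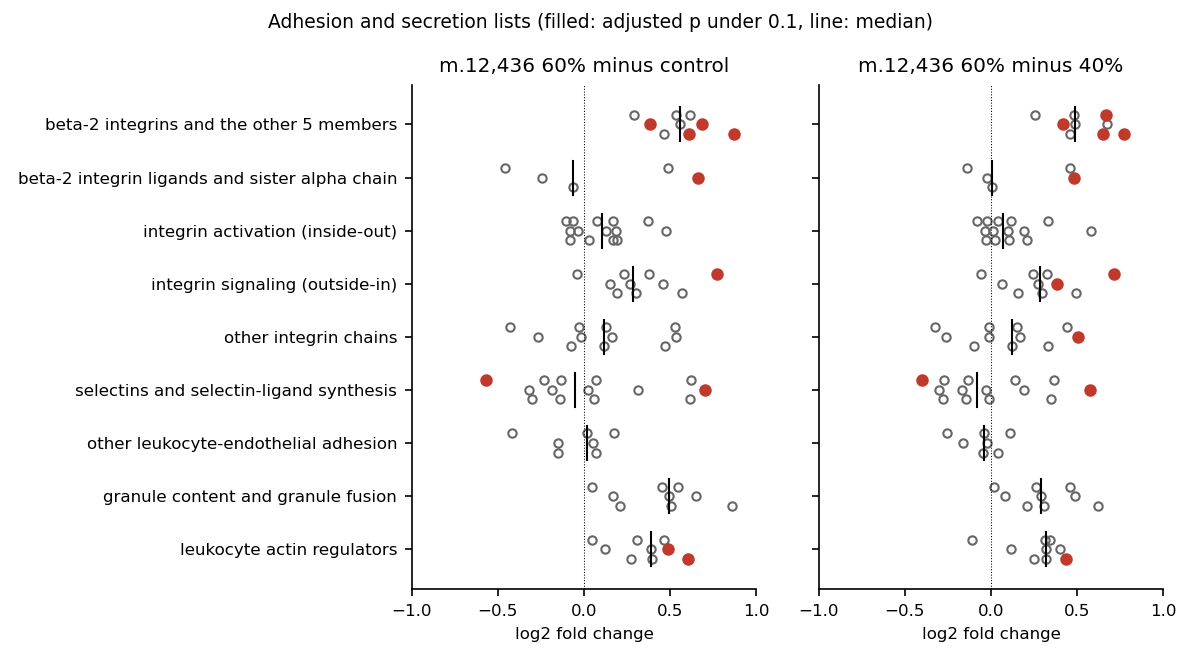
Log2 fold changes of the 9 genes and of the tested genes of 8 adhesion and secretion lists, for m.12,436 60% minus control (left) and m.12,436 60% minus m.12,436 40% (right), with filled points for an adjusted p under 0.1 and a line at each list's median. The members sit at a median of 0.55 and 0.49, the signaling list at 0.28 in both, and the lists of counter-receptors, selectins and endothelial adhesion near 0.

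Markers of the cells that carry these integrins were read alongside. The 9 macrophage markers summed to 1265 to 1560 CPM in control, 1254 to 1568 in m.12,436 40% and 1090 to 1895 in m.12,436 60% tumors. edgeR called 0 of the 9 in any comparison, with 3 at an unadjusted p under 0.05 against control and 4 against m.12,436 40%. Of those 3, *Csf1r* and *Fcgr1* were higher and *Mrc1* was lower than in control tumors. *Adgre1* (F4/80) was at 79.4 ± 18.1 CPM in m.12,436 60% and 76.9 ± 10.5 in control tumors (0.047 ± 0.15), and *Csf1r* at 253 ± 39.6 and 203 ± 29.9 (0.32 ± 0.11, adjusted p = 0.167). *Mrc1* (CD206), a receptor of tissue macrophages, was at 80.5 ± 34.6 CPM in m.12,436 60% and 140 ± 76.8 in control tumors (−0.79 ± 0.37, adjusted p = 0.299), and *Cd68* at 80.1 ± 14.6 and 84.3 ± 13.4 (−0.074 ± 0.13). The 9 T and NK cell markers summed to 10.3 to 34.9, 10.6 to 25.8 and 11.3 to 62.1 CPM in the same order, with medians of 19.3, 20.5 and 28.9. All 9 were above 0 against control, with a median of 0.76, but edgeR called 0 in any comparison. At an unadjusted p under 0.05 there were 0 against control and 5 against m.12,436 40%, where 2285 of all 16213 genes tested reached it. The sum was highest in m.12,436 60% tumors 007, 001 and 004, at 62.1, 47.1 and 46.2 CPM, which were also the 3 highest in *Ptprc*, and lowest of that group in 005 and 006, at 11.3 and 11.95.

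Sums of neutrophil, dendritic, B and mast cell markers overlapped between the groups. The 7 neutrophil markers summed to 102 to 154 CPM in control, 65.4 to 209 in m.12,436 40% and 93.7 to 184 in m.12,436 60% tumors, most of it *Mmp9*, which other cells also make, and *Ly6g*, which defines mouse neutrophils, averaged 0.078, 0.083 and 0.060 CPM. The 5 dendritic cell markers summed to 21.9 to 30.3, 22.5 to 30.4 and 19.9 to 35.6 CPM, and the 4 mast cell markers to 17.2 to 134, 39.9 to 121 and 7.13 to 83.5. In cultures the dendritic cell markers summed to 4.14 to 10.9 unscaled CPM, so part of their sum in tumors may not come from dendritic cells. The 4 B cell markers reached 1.78 CPM at most. edgeR called 0 genes of these 4 lists in any comparison, with 1 at an unadjusted p under 0.05, *Ccr7* against m.12,436 40%.

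Markers of cells that are not leukocytes were read in the same way, in control, m.12,436 40% and m.12,436 60% tumors. The 4 platelet markers summed to 18.9 to 80.6, 11.8 to 39.1 and 7.76 to 29.6 CPM, with the highest sum in control tumor 003. edgeR called 0 of the 3 tested in any comparison, with 2 at an unadjusted p under 0.05 against control, *Pf4* (−1.18 ± 0.43, adjusted p = 0.190) and *Ppbp* (−2.55 ± 0.77, adjusted p = 0.130). The 5 skeletal muscle markers summed to 2.29 to 142, 38.98 to 194 and 2.28 to 225 CPM, with medians of 63.5, 115.5 and 2.51, so muscle RNA varied widely within every group. The 4 endothelial markers summed to 111 to 182, 100.1 to 171 and 94.7 to 188 CPM and the 4 fibroblast markers to 2495 to 3902, 2269 to 3279 and 2790 to 3131. edgeR called 0 genes of these 3 lists in any comparison, with 2 endothelial markers at an unadjusted p under 0.05 against m.12,436 40%. The part of any of the cells marked by these lists in the levels of the 9 genes was not tested.

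The genes whose pattern over the 18 tumors was most like that of *Itgb2* were found by the SD of the log2 ratio to *Itgb2*, among 12316 genes with a mean of at least 1 log2 CPM. Outside the members they were *Atp2b4*, a plasma membrane calcium pump, at 0.150, *Bst1*, a surface NAD-consuming ectoenzyme, at 0.154, *Smpdl3a*, a nucleotide phosphodiesterase, at 0.160, *Adgre5* (CD97, an adhesion receptor of leukocytes) at 0.202 and *Ncf1*, a subunit of the phagocyte NADPH oxidase, at 0.218. The median over all these genes was 0.481. All 5 were at or below 0.441 unscaled CPM in every culture. Of the members, *Srgn* was nearest to *Itgb2*, at rank 5 with 0.217, *Itgam* stood at rank 55, *Itgal* at 92, *Selplg* at 94, *Ptprc* at 108, *Stx11* at 109, *Fermt3* at 662 and *Itgax* at 1083. All points share the same 18 libraries and groups, so the measure describes these tumors only.

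*Stx11*, the one member with many reads in melanoma cells, was compared between the cultures, as were *Itgb2* and *Itgax*, the other members that passed the count filter there. This comparison was added after the counts in cultures had been seen and rests on samples the choice of genes did not use. *Stx11* measured 14.4, 13.0, 6.65 and 10.6 TMM-scaled CPM in control cultures 1 to 4 and 20.7, 21.4, 14.7 and 16.6 in m.11,944 60% cultures 1 to 4. Each m.11,944 60% culture was above every control culture, as was so for 1.62% of the 12930 genes tested. The log2 fold change was 0.72 ± 0.25 with an adjusted p of 1.00 (edgeR, 12930 genes, of which 0.0387% were called, and 532 had an unadjusted p under 0.05). Cultures of the same number deviated together, and with the replicate number as a block it was 0.75 ± 0.11 with an adjusted p of 0.0119, in a fit that called 7.11% of genes. The call on *Stx11* therefore depends on the pairing. *Itgb2* differed by 0.15 ± 0.34 and *Itgax* by 0.11 ± 0.31, with adjusted p of 1.00 without the block and 0.772 and 0.880 with it. The m.11,944 tumors were not analysed here, so no tumor of that genotype can be set beside these cultures.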

How the data were processed

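RNA from cell pellets and tumor fragments was extracted and sequenced by GeneWiz. The authors aligned reads to GRCm39 with STAR, counted them on Ensembl genes with featureCounts and deposited 1 table of raw counts. The strand setting is not given in the sources used here. Of its 47 columns, 26 were matched to a sample and 21 were not used, since nothing says which sample they hold. The columns of m.11,944 60% cells were matched through a heading of the study's source data. Those of m.12,436 tumors were matched through the words high and low and the numbering, since only these tumor groups are numbered up to 7. Control cultures were matched by how their columns are numbered. These matches were inferred and are not stated in the labels. Gene positions, canonical transcripts and start sites came from GENCODE on GRCm39, in which 56017 genes were found.

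Counts of the 18 tumors were fitted together in R 4.3.3 with edgeR 4.0.16 (TMM, filterByExpr, robust quasi-likelihood test, no covariates). A gene was called at an adjusted p under 0.1, the threshold of the study, which used limma-voom. All p values are two-sided. Ratios used a prior count of 2 and exact permutation tests. Cultures were fitted separately. Members and lists were chosen with earlier results of these data known. Besides the 9 members, the text names from each list up to 3 genes that passed per comparison, or the 1 with the smallest p, the 5 genes most like *Itgb2*, and markers.

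Alternatives were limma-voom (limma 3.58.1), DESeq2 1.42.0 and its size factors, other count filters, only the groups compared, a replicate block, an adjusted p under 0.05, a prior count of 0.25 and leaving out each sample. The pairing by number in the labels was checked from deviations from group means across genes: in cultures every same-numbered pair correlated, at 0.718 to 0.832, and in tumors, which are separate mice, the mean over pairs was −0.156 to −0.0058. Precision was tested on simulated data: of 200 genes among 16213 given a log2 change of 0.7, edgeR recovered 63.5% for m.12,436 60% against control tumors (7.30% of calls false) and 69.0% against m.12,436 40% (5.48% false). Depth was 16475735 to 36173502 counts per sample.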

Additional observations from a re-analysis of the deposited data

Results flagged for a closer look

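In 45 groups of 4 to 7 samples, 1 value stood far from the rest of its group. *Itgax* measured 0.235 CPM in replicate 1 of the m.11,944 60% cells and 0.460 to 0.493 in the other 3 cultures, at counts of 6 to 18. Chance flags about 1 in 20 such groups.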

How the results depend on the processing

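The log2 fold changes of all members in m.12,436 60% against control and against m.12,436 40% tumors kept their sign under every alternative. In m.12,436 60% against control tumors, genes called went from 374 to 150 at an adjusted p under 0.05, 982 with DESeq2 and 943 with only the groups compared. Members called were 2 at an adjusted p under 0.05, 2 without a filter on low counts and 7 with the replicate block, and list genes 19 with DESeq2 and 12 with only the groups compared. Leaving out 1 tumor gave 66 to 724 genes, 1 to 7 members and 0 to 17 list genes. In m.12,436 60% against 40% tumors, genes called went from 293 to 113 at an adjusted p under 0.05, 748 with DESeq2 and 178 without a filter, members to 7 with DESeq2, and list genes to 1, 18 and 3. Leaving out 1 tumor gave 108 to 452 genes, 4 to 6 members and 1 to 11 list genes. In m.12,436 40% against control tumors DESeq2 called 5 genes, and leaving out 1 tumor gave 0 to 4. There, signs changed in values near 0: *Fermt3* was −0.0042 with the replicate block, and leaving out 1 tumor gave −0.015 to 0.13 for *Fermt3*, −0.34 to 0.055 for *Itgal*, −0.095 to 0.016 for *Itgam*, −0.18 to 0.23 for *Itgax*, −0.26 to 0.052 for *Itgb2*, −0.0058 to 0.29 for *Ptprc*, −0.016 to 0.25 for *Selplg* and −0.058 to 0.15 for *Srgn*. The ratios *Itgam*/*Itgal*, *Itgax*/*Itgam* and *Srgn*/*Ptprc* ran there from −0.091 to 0.36, −0.21 to 0.33 and −0.35 to 0.014, and *Itgax*/*Itgam* from −0.045 to 0.13 in m.12,436 60% against 40%. Leaving out 1 tumor in m.12,436 60% against control tumors gave −0.32 to 0.13 for *Itgam*/*Itgal*, −0.17 to 0.38 for *Itgax*/*Itgam*, −0.11 to 0.16 for *Itgb2*/*Ptprc* and −0.14 to 0.22 for *Srgn*/*Ptprc*, so all 4 changed sign. In cultures, *Itgb2* ran from −0.0063 to 0.47. The causes were not tested. The tumors share only a number, so the block there has no meaning beyond 1 more alternative. Depth limits the cultures, where 5 members had 17 reads or fewer in a group.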
